A study of Apis mellifera with 18 samples.

Results

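The 5 transcripts described here code for peptidases, enzymes that cut proteins and peptides, in the honey bee Apis mellifera. They are trypsin (XM_016916502.2, LOC408534), serine protease 53 (XM_001120112.5, LOC724308), serine protease K12H4.7 (XM_623673.6, LOC410729) and the aminopeptidase N transcripts of LOC551180 (XM_006565481.3) and LOC551224 (XM_006565484.3). They are 5 of the 28396 transcripts counted, and were taken from the 8 that the study groups under proteolysis among transcripts that differed between its tolerant and susceptible patrilines in the Malpighian tubules. The values that chose them are thus the levels in the tubule pools, and differences between those pools, the ratio of ventriculus to tubules and the difference of tubules from brain are given as a description with no test. All 5 passed the filter on low counts, which kept 10209 transcripts.

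RNA was sequenced from workers of Colony 36, sorted into patrilines, the daughters of 1 father within the colony of 1 queen. Every worker was fed clothianidin, a neonicotinoid insecticide, at 4.27 ppb in sucrose when 8 days old and was frozen 24 h later, so that all groups share the exposure and no unexposed bees were analysed. The groups are 3 tissues, the brain, the ventriculus and the Malpighian tubules, each with 6 pools (P1, P7, P8, P11, P21 and P24, named by patriline) of 5 workers with 300 ng of RNA per worker, which gives 18 libraries. The labels do not give the tolerance of a patriline, and no comparison by tolerance was made.

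The ventriculus is the midgut of the bee, where food protein is digested. Trypsins and other serine proteases released into the gut cut proteins into peptides, and aminopeptidases N, zinc enzymes held on the microvilli of gut cells, then release single amino acids from the free amino end. The Malpighian tubules are excretory tubes that open into the gut just behind the ventriculus, and the brain has no digestive role.

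Total counts per library lay between 39722329 and 87946924. Levels are CPM, the counts of a transcript relative to all counts of its library, scaled with TMM factors, which were 0.47 to 0.61 in the ventriculus, 1.08 to 1.34 in the tubules and 1.19 to 1.78 in the brain, so that a scaled CPM in the ventriculus is larger than the plain share of counts. Of the nerve genes of a marker list, 18 of 22 were matched, and their summed level was 1073 to 8711 CPM in the brain, 438 to 969 in the tubules and 66.8 to 84.1 in the ventriculus, with Dop3 at 0 counts in each tissue. In the brain, the 10 royal jelly and hypopharyngeal gland genes held 29.0% of the counts of pool P11 and 20.3% of those of P21, and at most 4.17% of the other 4. The brain pool of P21 also stood apart in transcripts of the tubules. The 92 tubule markers reached 17.0% of the tubule level there (median over markers), against 0.577% to 1.10% in the other 5 brain pools. Over 87 such markers the summed level was 111857 to 200187 CPM in the tubules and 1413 to 22011 CPM in the brain. Results that rest on the brain are therefore given with and without this pool or patriline.

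The 5 peptidases were midgut transcripts at high level, lower in the tubules and very low in the brain. Together they held 3.06% to 3.66% of all counts of a ventriculus library, 0.144% to 1.22% of a tubule library and 0.000475% to 0.00941% of a brain library. The largest parts came from aminopeptidase N LOC551180, with 1.37% to 1.98% of the ventriculus counts, and serine protease 53, with 1.27% to 1.86%. These shares depend on transcript length, which was not used here, so the members are not ranked against each other.

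**Figure D1:**
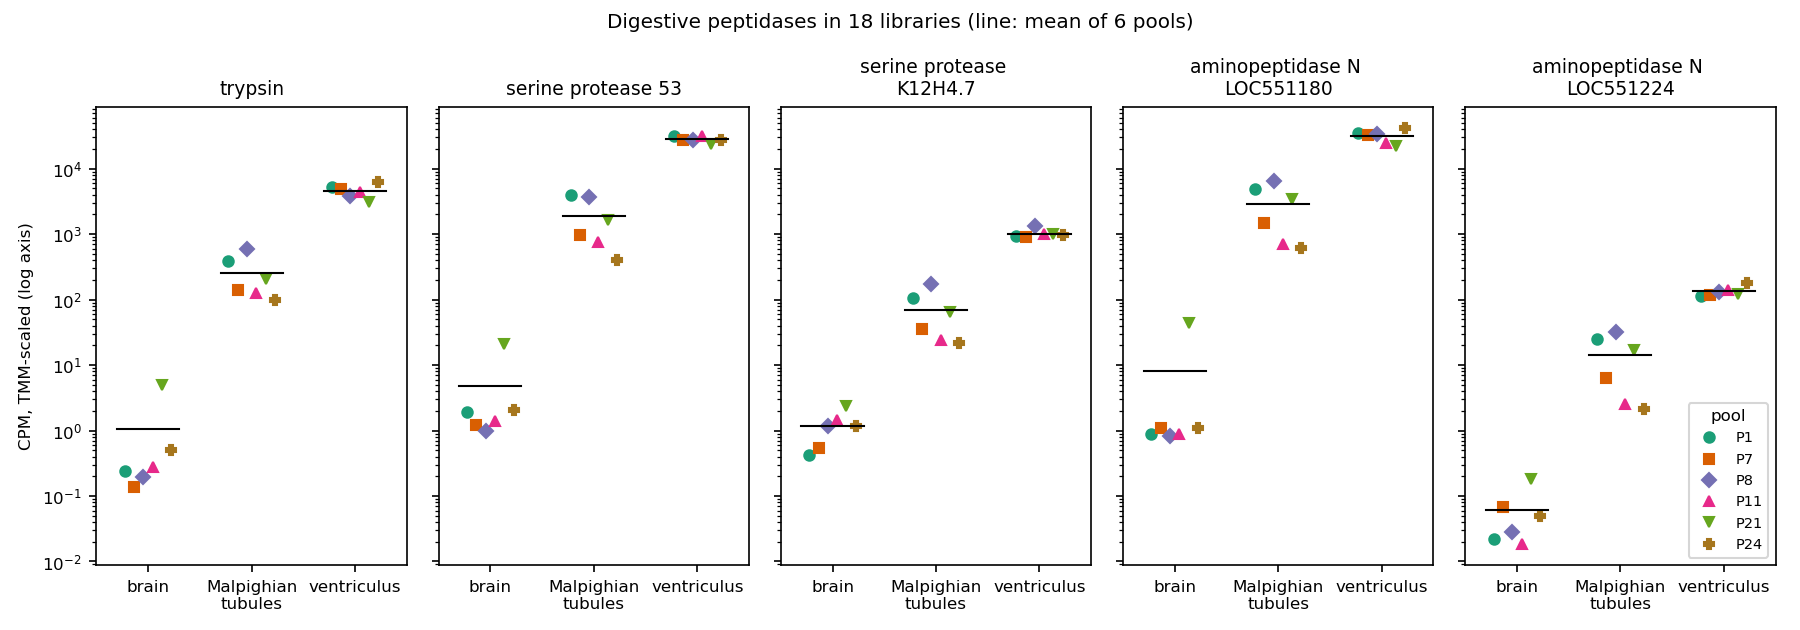
Level of each digestive peptidase in TMM-scaled CPM (log axis) in 6 pools of brain, Malpighian tubules and ventriculus, with 1 point per pool and a line at the mean. In each panel all ventriculus points lie above all tubule points and these above all brain points, and in the brain the P21 pool is the highest. Of all transcripts, 18.1% had every ventriculus pool above every tubule pool, and 25% every tubule pool above every brain pool.

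Trypsin, which cuts proteins after lysine and arginine, was at 3044 CPM in the lowest ventriculus pool, with a median of 4588 and 6348 in the highest. In the tubules it ranged from 96.7 CPM in P24 through a median of 175 to 586 in P8. In the brain it lay at 0.13 to 0.51 CPM in 5 pools, which is 10 to 41 counts, and at 4.98 CPM in P21. The 3 tissues did not overlap for trypsin. Without overlap, the ventriculus lay above the brain for 25.5% of all transcripts.

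Serine protease 53, which takes its name from a family of trypsin-like enzymes, was at 23464 CPM in the lowest ventriculus pool, 27577 at the median and 31198 in the highest. In the tubules it ranged from 404 CPM in P24 through a median of 1302 to 3951 in P1. In the brain it was at 0.98 to 2.08 CPM in 5 pools and at 21.3 CPM in P21. Of the 5 members it varied least between the ventriculus pools, with a coefficient of variation of 10.2%.

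Serine protease K12H4.7 carries the name of a gene of Caenorhabditis elegans. Its level in the ventriculus ran from 916 CPM through a median of 971 to 1306 in P8, the pool that stood above the other 5 (916 to 1000.1 CPM). In the tubules it ranged from 21.5 CPM in P24 through a median of 49.8 to 170 in P8. In the brain it was at 0.42 to 1.45 CPM in 5 pools and at 2.37 CPM in P21, a smaller step than for the members above. Its gene overlaps LOC408596 in the RefSeq annotation used for names. LOC408596 was at 27.6 to 45.9 CPM in the ventriculus and 0.62 to 1.58 CPM in the brain, and since the strand setting of the counting is not given in the sources used here, shared fragments cannot be told apart.

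Aminopeptidase N LOC551180 was at 22295 CPM in the lowest ventriculus pool, 32729 at the median and 41935 in the highest. In the tubules it ran from 622 CPM in P24 through a median of 2436 to 6414 in P8. In the brain 5 pools lay close together, at 0.83 to 1.10 CPM, and P21 was at 43.5 CPM, 39.6 times the highest of the others. No other member had so large a step in that pool, where it was 9.73 for trypsin, 10.2 for serine protease 53, 1.64 for serine protease K12H4.7 and 2.69 for aminopeptidase N LOC551224.

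Aminopeptidase N LOC551224 is the next gene to LOC551180 in the RefSeq annotation, with no gene listed between them. The transcript XM_006565484.3 was at 115 CPM in the lowest ventriculus pool, 126 at the median and 177 in the highest. In the tubules it ran from 2.10 CPM in P24 through a median of 11.6 to 32.0 in P8. In the brain it had 1 to 11 counts per pool, 25 in all 6, with the 11 counts in P21.

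The ventriculus and the tubules were each compared with the brain to ask how far the members are gut transcripts. All 5 members were higher in the ventriculus than in the brain by edgeR's quasi-likelihood test over 10209 transcripts, with Benjamini-Hochberg adjusted p from 1.1e-09 to 1.7e-06. By this rule 33.3% of all transcripts tested were higher in the ventriculus, and 9.87% were at least 4-fold higher, as all 5 members were. LOC551224, with 1 to 11 counts per brain pool, passed the filter only through the ventriculus and the tubules, where it is high. Its adjusted p is thus not read as support, and its fold change is a description. The log2 fold change was 12.10 ± 1.18 (SE) for trypsin, 12.50 ± 1.19 for serine protease 53, 9.74 ± 0.68 for serine protease K12H4.7, 11.94 ± 1.53 for LOC551180 and 11.09 ± 0.86 for LOC551224. Of the 7904 calls, 43.0% were higher in the ventriculus, and 10.5% of 9057 when only library size was used for scaling. Over all transcripts tested the median log2 fold change was −0.23, against −1.79 on plain library size, and the members' values are read against it. With patriline 21 left out the values were 14.14, 14.21, 10.08, 15.09 and 11.73 in the same order, and all 5 stayed past the threshold. On plain library size they were 10.70, 11.12, 8.26, 10.59 and 9.56. Without the brain pools of both P11 and P21 they were 14.07, 14.16, 10.29, 15.01 and 11.62.

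For the member with the fewest counts, LOC551224, the ventriculus mean was 2310 times the pooled brain level, with a counting interval of 1565 to 3569 (exact Poisson, 95%). Without the brain pool of P21, where 14 counts remain, the ratio was 3546, with an interval of 2114 to 6487. These intervals cover counting error only.

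The members' levels in the tubules were also above those in the brain, given as values with no test, since the tubule pools chose the members. The log2 fold change of tubules against brain in the same fit was 7.93 ± 1.01 for trypsin, 8.62 ± 1.03 for serine protease 53, 5.88 ± 0.58 for serine protease K12H4.7, 8.50 ± 1.35 for LOC551180 and 7.85 ± 0.78 for LOC551224. Without patriline 21 these were 9.93, 10.32, 6.23, 11.52 and 8.42. The 6 tubule pools lay above the 6 brain pools for each member, as they did for 25% of all transcripts. Of all transcripts tested, 34.5% were called higher in the tubules and 9.65% at least 4-fold higher, and nothing is read from this for the members. Of all calls 46.0% were higher in the tubules, and 30.8% on plain library size. For the ventriculus against the brain the share of transcripts without overlap was 25.5%. In bulk samples, fewer cells of a type and less RNA per cell cannot be told apart.

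In the brain pool of P21, where tubule transcripts were raised, the members stood at 1.08% to 3.70% of the tubule level and at 0.0908% to 0.237% of the ventriculus level of the same patriline. The tubule markers of that pool had a median share of 17.0% with quartiles of 8.81% and 20.6%, and the ventriculus markers a median share of 1.57%. The part of these transcripts in the members' brain values was not tested. In the other 5 brain pools trypsin was at 0.00278% to 0.00806%, serine protease 53 at 0.00356% to 0.00772% and LOC551180 at 0.00248% to 0.00358% of the ventriculus level. Serine protease K12H4.7, at 0.0457% to 0.146%, and LOC551224, at 0.0132% to 0.0572%, were higher there and closer to their P21 values of 0.237% and 0.147%.

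Within a patriline, the ventriculus level was above the tubule level for every member, and by a factor that changed from patriline to patriline. The rule names this ratio, so no test is given. For trypsin it ranged from 6.56 in P8 through a median of 24.4 to 65.6 in P24. For serine protease 53 it ranged from 7.57 through 21.4 to 66.8, and for serine protease K12H4.7 from 7.70 through 20.7 to 44.4. The aminopeptidase transcripts had the widest ranges, from 5.19 through 14.5 to 67.5 for LOC551180 and from 4.02 through 12.9 to 84.5 for LOC551224. The range of LOC551224 depended on counting a single transcript. With both of its transcripts summed it was narrower, from 3.72 through 11.1 to 27.7. On this scale all 5 had the lowest ratio in P8 and the highest in P24. On plain library size serine protease 53 was lowest in P1, at 3.46 against 3.48 in P8, and serine protease K12H4.7 highest in P11, at 20.3 against 16.6 in P24.

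The size of this ratio depends on the scaling. With plain CPM by library size, the medians were 11.5, 10.1, 9.72, 6.77 and 6.06 in the same order of members. Every member was still higher in the ventriculus in each patriline, and the lowest ratio was 1.85, for LOC551224 in P8. The 6 ventriculus pools lay above the 6 tubule pools for all 5 members on the TMM scale, as for 18.1% of all transcripts. By the test over all transcripts 26.5% were higher in the ventriculus than in the tubules and 6.03% at least 4-fold higher, and nothing is read from this for the members. Of all calls 44.6% were higher in the ventriculus, and 7.90% on plain library size.

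**Figure D2:**
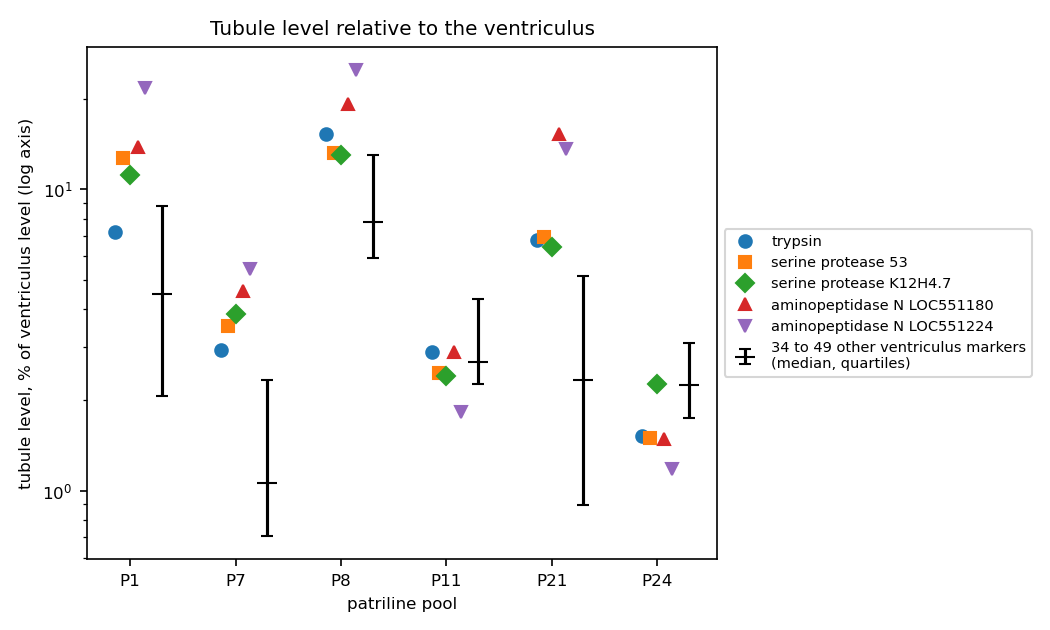
Tubule level of each member as a percentage of its ventriculus level in the same patriline (TMM-scaled CPM, log axis), with the median and quartiles of 34 to 49 other ventriculus markers, as a percentage of their ventriculus median over the other patrilines. The members lie highest in P8, at 13.0% to 24.8%, and lowest in P24, at 1.18% to 2.25%.

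Seen as a share of the ventriculus level, the 5 members stayed close together within a tubule pool and far apart between pools. Their choice by a shared difference between these pools makes this a description. Their median share was 15.2% in P8, 12.8% in P1, 6.97% in P21, 3.86% in P7, 2.45% in P11 and 1.50% in P24. The highest member was 1.58 (P11) to 3.01 (P1) times the lowest within a pool. The aminopeptidases led the members in P1, P7, P8 and P21, while LOC551224 was the lowest of them in P11 and P24. With both LOC551224 transcripts summed, that gene stood at 3.76% in P11 and 3.61% in P24, above the other members in both pools.

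Other ventriculus transcripts were also found in the tubule pools, in another order of the pools than that of the members. The median of 34 to 49 ventriculus markers, with the member genes left out, stood at 4.49% of the ventriculus level in P1, 1.06% in P7, 7.80% in P8, 2.68% in P11, 2.33% in P21 and 2.24% in P24. None of these markers was at 0 in a tubule pool. P8 was the highest pool for markers and members alike, while P7 was the lowest for the markers and P24 for the members. With a marker level of at most 2% of the source, the markers stood at 1.74% in P1, 0.581% in P7, 6.90% in P8, 2.44% in P11, 0.603% in P21 and 2.07% in P24. Over the 40 markers that meet the limits in all patrilines the summed level was 734889 to 1082050 CPM in the ventriculus and 9888 to 69069 CPM in the tubules. With the 5% limit the members lay above the marker median in P1, P7, P8 and P21. In P11 and P24 they lay below it, except for trypsin and LOC551180 in P11 and serine protease K12H4.7 in P24. The markers were chosen for a low tubule level and the members were not. Their place above or below the marker median is thus partly set by that limit and is a description only. The part of ventriculus RNA in the members' tubule levels was not tested.

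Between the tubule pools each member varied 6.05-fold (trypsin), 9.78-fold (serine protease 53), 7.91-fold (serine protease K12H4.7), 10.3-fold (LOC551180) or 15.3-fold (LOC551224). Set beside this, 158 other transcripts that were at least 4-fold higher in the ventriculus, with a median of 100 CPM or more there, had a median range of 4.69-fold (quartiles 2.51 and 8.32). For 105 transcripts that were as much higher in the tubules, the median range was 1.83-fold. These sets were chosen after the values were seen and serve as a description. The members were chosen for a difference between the tubule pools, so their wider range is partly set by that choice.

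**Figure D3:**
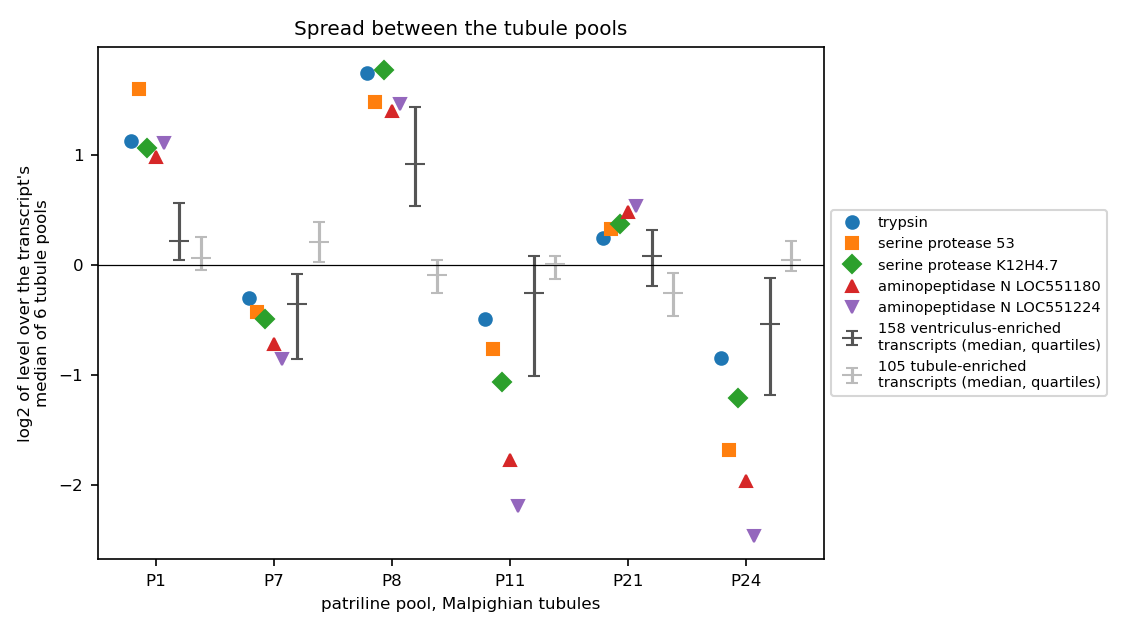
Level of each member in the 6 tubule pools as log2 of the ratio to its own tubule median, with the median and quartiles of 158 ventriculus-enriched and 105 tubule-enriched transcripts. The members lie above 0 in P1, P8 and P21 and below 0 in P7, P11 and P24, with P24 reaching −2.47 for LOC551224.

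The direction of the members in a tubule pool was also that of most ventriculus-enriched transcripts. Relative to its own tubule median, the typical ventriculus-enriched transcript stood at 0.22 on the log2 scale in P1, −0.36 in P7, 0.91 in P8, −0.26 in P11, 0.08 in P21 and −0.54 in P24. The members' medians were 1.11, −0.49, 1.48, −1.06, 0.37 and −1.69 in the same order, farther from 0 in each pool. Differences between these pools chose the members, so that distance is partly set by the choice and is a description only. Of the 158 transcripts, 78.5% were above their median in P1, 18.4% in P7, 96.8% in P8, 31.0% in P11, 57.6% in P21 and 17.7% in P24. The majority was thus smallest in P21. Tubule-enriched transcripts stayed between −0.26 and 0.20 at the median.

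Over the 6 tubule pools the members rose and fell together, which their choice by a shared difference between these pools makes a description. Pearson's r of log2(CPM + 1) was 0.94 to 1.00 over the 10 pairs. The nearest pair was that of the neighbouring aminopeptidase genes, with r = 0.9998 over 6 pools. The order of the pools was P8, P1, P21, P7, P11 and P24 from high to low for 4 members, and serine protease 53 differed from it only in that P1 was above P8.

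In the ventriculus, which was not used to choose the members, the correlations lay on both sides of 0. Over its 6 pools r ranged from −0.46 to 0.84 with a median of 0.12, and 5 of the 10 pairs were above 0. The highest value was that of trypsin with LOC551180, at r = 0.84 (exact permutation p = 0.043, adjusted 0.17 over 20 pairs, two-sided) and Spearman's rho = 0.83 (exact permutation p = 0.058, adjusted 0.39). Without the pools farthest from the median in trypsin, P21 and P24, r was 0.29. The lowest was that of trypsin with serine protease K12H4.7, at r = −0.46 (exact permutation p = 0.37, adjusted 0.53) and rho = −0.71 (exact permutation p = 0.14, adjusted 0.54). No pair in the ventriculus passed the adjusted threshold of 0.05, and 1 had an unadjusted p under 0.05.

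**Figure D4:**
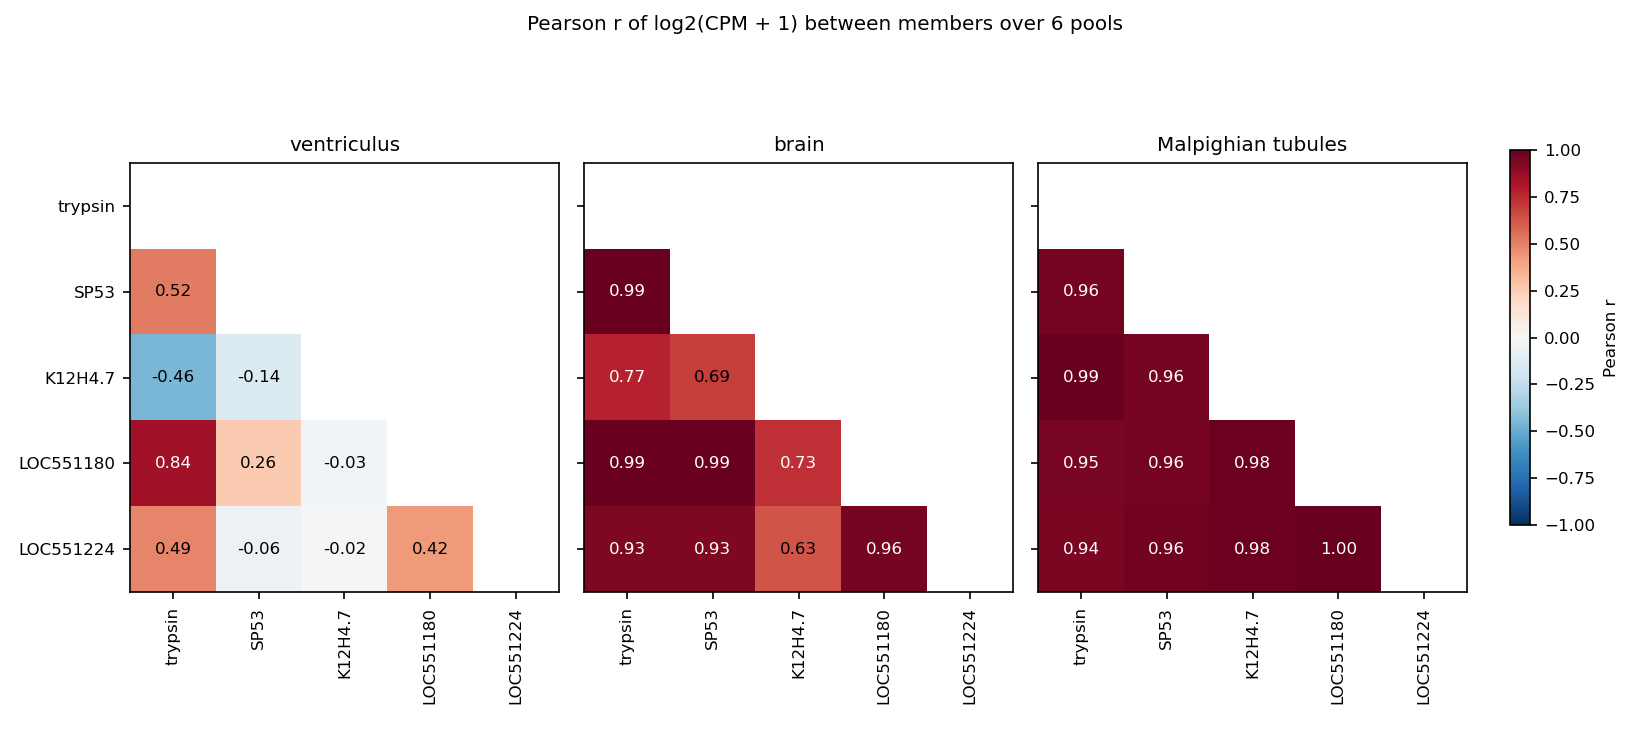
Pearson's r of log2(CPM + 1) between the 5 members over the 6 pools of each tissue, in colour and digits. Values are 0.94 to 1.00 in the Malpighian tubules, 0.63 to 0.99 in the brain, where 1 pool stands apart, and −0.46 to 0.84 in the ventriculus.

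In the brain r was 0.63 to 0.99 over the 10 pairs, with a median of 0.93, but this rested on the P21 pool. With that pool left out the median was 0.18 and the range −0.32 to 0.87 over 5 pools. No brain pair passed the adjusted threshold, and 4 had an unadjusted p under 0.05. The lowest adjusted value in either tissue was 0.15 (exact permutation), for trypsin with serine protease 53 and for the pair of aminopeptidases, both in the brain. Spearman's rho, which does not weigh the size of the P21 value, ran from 0.14 to 0.89.

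Whether a patriline level is shared by the brain and the ventriculus was tested with a patriline term over their 12 libraries. None of the 5 members had an adjusted p under 0.05 by edgeR's quasi-likelihood test, and all 5 had an unadjusted p over 0.05. Adjusted p ran from 0.59 for LOC551180 to 0.93 for LOC551224, and without patriline 21 from 0.63 for trypsin to 0.88 for LOC551180, with 6 transcripts called again. Over all 9819 transcripts 6 were called, or 0.0611%, and 890 had an unadjusted p under 0.05. DESeq2's likelihood ratio test called 761 transcripts, with LOC551180 among them (adjusted p = 0.022) and no other member.

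The ventriculus pools differed much less than the tubule pools in the members' levels. The members were chosen for a difference between the tubule pools, so this contrast is partly set by that choice and is a description only. Between the lowest and the highest ventriculus pool the range was 2.09-fold for trypsin, 1.88-fold for LOC551180, 1.54-fold for LOC551224, 1.43-fold for serine protease K12H4.7 and 1.33-fold for serine protease 53. Coefficients of variation were 10.2% to 25.0% in the ventriculus and 74.5% to 88.5% in the tubules. P21 had the lowest ventriculus level of trypsin, serine protease 53 and LOC551180, and P24 the highest of trypsin, LOC551180 and LOC551224. In the tubules P24 was the lowest pool for all 5.

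The proportion of the members to each other within a library needs no scaling between libraries. Serine protease 53 stood at 0.64 to 1.27 times the level of LOC551180 in the ventriculus and 0.48 to 1.08 times in the tubules, ranges that overlap. P11 had the highest of these ratios in both tissues, at 1.27 and 1.08. Trypsin was at 0.12 to 0.18 of LOC551180 in the ventriculus and 0.061 to 0.17 in the tubules. LOC551224 was at 0.0033 to 0.0056 of its neighbour in the ventriculus and 0.0034 to 0.0052 in the tubules, nearly the same range. These transcripts varied 10.3-fold (LOC551180) and 15.3-fold (LOC551224) between the tubule pools on the TMM scale. Fragments that fit both LOC551224 transcripts were not counted, so the size of its proportion to LOC551180 is too low by an unknown amount. Serine protease K12H4.7 was at 0.023 to 0.045 of LOC551180 in the ventriculus and 0.019 to 0.035 in the tubules.

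In 5 brain pools most of these proportions lay outside the gut ranges, at low counts. Serine protease K12H4.7 was at 0.48 to 1.65 times LOC551180 in 5 brain pools and at 0.0546 times in P21. Serine protease 53 was at 1.14 to 2.18 times LOC551180 in 5 brain pools and at 0.49 in P21. The tubule pool of the same patriline was at 0.48 and its ventriculus pool at 1.05. Trypsin was at 0.115 in the brain pool of P21, between the 0.061 of the tubule pool and the 0.137 of the ventriculus pool of that patriline. LOC551224 was at 0.0042 in that brain pool, within both its tubule and its ventriculus range. In the other 5 brain pools trypsin was at 0.13 to 0.47 and LOC551224 at 0.021 to 0.0625. For serine protease K12H4.7 the P21 value of 0.0546 was above the 0.019 of the tubule pool.

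LOC551224 has a further transcript, XM_006565485.3, with other levels over the tissues than the member. It was at 1.44 to 2.79 CPM in the ventriculus, 0.98 to 4.59 in the tubules and 0.82 to 1.65 in the brain. Its log2 fold change was 0.74 ± 0.33 for ventriculus against brain (adjusted p = 0.0495, edgeR), but was −0.83 when only library size was used for scaling and was no longer past the threshold with the patriline as a block (adjusted p = 0.095) or without the brain pool of P21 (0.74, adjusted p = 0.069). In the tubules against the brain it was 1.22 ± 0.33 (adjusted p = 0.0031), and 0.83 with an adjusted p of 0.058 on plain library size.

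**Figure D5:**
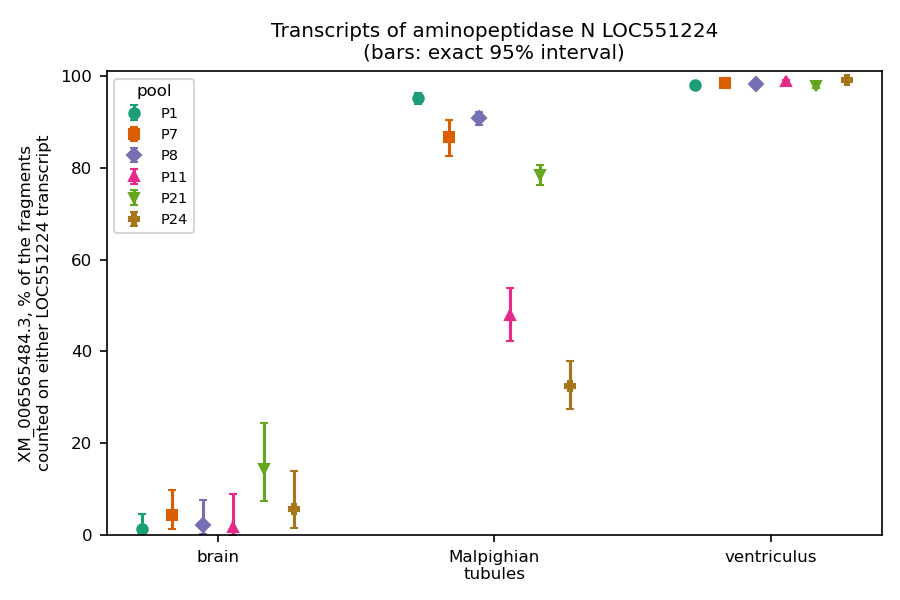
Share of XM_006565484.3 among the fragments that were counted on either transcript of LOC551224, in percent, for each pool of 3 tissues, with exact 95% intervals. The shares are 97.8% to 99.2% in the ventriculus, 32.5% to 95.1% in the tubules and 1.30% to 14.5% in the brain.

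The share of XM_006565484.3 among the fragments counted on either transcript gives the proportion free of scaling. It was 97.8% to 99.2% in the ventriculus, from 3991 to 6187 fragments per pool. In the brain it was 1.30% to 5.71% in 5 pools and 14.5% in P21 (exact 95% interval 7.45% to 24.4%, 76 fragments). The means of 98.4% and 4.94% differed by 93.5 points (exact permutation test, two-sided p = 0.0022, the smallest that 6 against 6 pools allow), and the share was higher in 6 of 6 ventriculus pools than in any brain pool. Without the brain pool of P21 the brain mean was 3.04% and the difference 95.4 points (exact permutation test, two-sided p = 0.0043). Both tests regrouped the pools freely and did not use the pairing of the tissues by patriline. Their p-values thus take no account of the shared workers.

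In the tubules the share ran from 95.1% (93.9% to 96.2%) in P1, 90.7% in P8, 86.8% in P7 and 78.5% in P21 to 48.0% (42.3% to 53.8%) in P11 and 32.5% (27.5% to 37.8%) in P24. These intervals cover counting error only. XM_006565485.3 itself had 71 counts in P1, 42 in P7, 151 in P8, 157 in P11, 292 in P21 and 226 in P24, and the member 1392, 276, 1481, 145, 1066 and 109. P11 and P24, with the lowest shares, had the fewest counts of the member. Their counts of the other transcript were above those of P1 and P7 and below that of P21. The part of each transcript in the low shares was not tested. Fragments that fit both transcripts were not counted on either, and LOC724518, which overlaps LOC551224 in the RefSeq annotation, was at 2.22 to 3.36 CPM in the brain, 0.91 to 1.86 in the ventriculus and 0.23 to 0.82 in the tubules.

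Of the other 3 transcripts that the study grouped under proteolysis, 1 had the pattern of the members. Caspase-3 (XM_394855.6), by name a protease of programmed cell death, was at 3374 to 5574 CPM in the ventriculus, 105 to 823 in the tubules and 0.36 to 6.79 in the brain, with the highest brain value in P21. Its log2 fold change was 11.51 ± 1.02 for ventriculus against brain (adjusted p = 1.8e-08, edgeR), or 12.91 without the brain pool of P21 (adjusted p = 1.2e-10), and 7.77 ± 0.88 for tubules against brain, with no test. It stood among the 3 transcripts most like trypsin and most like serine protease 53.

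The endothelin-converting enzyme homolog (XM_392043.7), a metallopeptidase that trims signalling peptides in mammals, was highest in the brain. It was at 20.7 to 40.2 CPM in the brain, 2.82 to 8.21 in the ventriculus and 0.51 to 5.74 in the tubules, with a log2 fold change of −2.69 ± 0.55 for ventriculus against brain (adjusted p = 0.00027, edgeR) and −2.75 without the brain pool of P21. The ADAM10-like transcript (XM_026445397.1), of a metalloproteinase family that sheds proteins from cell surfaces, was at 5.15 to 10.6 CPM in the brain and 2.08 to 10.8 in the ventriculus, with a log2 fold change of −0.26 ± 0.39 (adjusted p = 0.56, edgeR) and −0.32 without the brain pool of P21. In the tubules it was at 0.37 to 1.93 CPM with a log2 fold change of −3.19 ± 0.43 against the brain, given with no test. All 3 of these were chosen by the study on the same tubule pools.

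Among other gut transcripts on the study's list, lipase 3 (XM_394827.6), by name a fat-splitting enzyme, was at 2232 to 4754 CPM in the ventriculus, 85.7 to 1332 in the tubules and 7.71 to 11.4 in the brain, where P21 did not stand apart. The chymotrypsin inhibitor (XM_001121077.5), by name a blocker of a digestive protease, was at 5020 to 7139 CPM in the ventriculus, 121 to 1030 in the tubules and 2.39 to 81.3 in the brain, with its highest brain value in P11. Pancreatic triacylglycerol lipase (XM_393060.7) was at 38.4 to 83.2 CPM in the ventriculus and 6.32 to 10.8 in the brain, with a log2 fold change of 2.80 ± 0.46 (adjusted p = 2.7e-05, edgeR) and 2.76 without the brain pool of P21. Its tubule level of 4.32 to 33.4 CPM gave a log2 fold change of 0.78 ± 0.43 against the brain, with no test. The serine protease SP34, the only related peptidase that the names in the annotation gave, had 0 counts on both of its transcripts in all 18 libraries. Fragments that fit both transcripts would not have been counted on either, so this does not show that SP34 was absent.

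Over all 18 libraries the transcripts most like a member were others with the same order of tissues. For trypsin they were LOC408320 (r = 0.9988), LOC410269 and caspase-3, and for serine protease 53 LOC100577143 (r = 0.9979), caspase-3 and LOC551180. For serine protease K12H4.7 they were LOC107965746 (r = 0.9976), LOC726315 and LOC100578412. LOC551180 was nearest to LOC726855 (r = 0.9979), LOC100577641 and LOC100577143, and LOC551224 to LOC100577161 (r = 0.9974), LOC100577128 and LOC727121. Of these, LOC408320, caspase-3, LOC107965746, LOC726315, LOC100578412, LOC100577161 and LOC100577128 are also on the study's list of transcripts that differed in the tubules. LOC410269, LOC100577143, LOC726855, LOC100577641 and LOC727121 are not. The tubule libraries are part of this r, so a shared difference between those pools enters it too. Each member had 705 to 916 of the 10208 other transcripts at r above 0.9, since the libraries share the differences between the tissues. The neighbouring LOC551180 was at rank 261 among the transcripts most like LOC551224, with r = 0.946.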

How the data were processed

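The authors trimmed reads of stranded total RNA libraries with Trimmomatic, aligned them with STAR, gathered reports with MultiQC and counted fragments with HTSeq. The deposited values are raw counts per transcript. For versions, for the strand setting and for the annotation, the sources used here give nothing. The paper names Amel_4.5, while symbols come from RefSeq's Amel_HAv3.1 table, which matched 28211 of the 28396 features, so the build is uncertain and no coordinates or sequences are printed. Left out of library sizes and tests were fragments that HTSeq gave as ambiguous (30.9% to 50.3%), without a feature (6.26% to 17.6%) or with several alignments (1.47% to 2.76%). Transcripts of a gene or near-identical paralogs lose shared fragments to these classes. All sample columns were used.

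Transcripts were filtered with filterByExpr (minimum count 10, minimum total count 15), scaled by TMM and compared between tissues in 1 fit over 18 libraries with edgeR 4.0.16 (glmQLFit, glmQLFTest; R 4.3.3, limma 3.58.1), with Benjamini-Hochberg adjustment over all transcripts and a threshold of 0.05. DESeq2 1.42.0 was an alternative. The fits were tested on simulated data. Correlations used log2(CPM + 1), with exact p over 720 pairings (Python 3.11.15, scipy 1.17.1). A marker of a tissue had at least 100 CPM in each of the other 5 pools of that tissue, and at most 5% of its level there as the median of the tissue it was searched in. The share of that tissue is the median, over the markers, of the library's level in percent of that source level.

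Samples were grouped by the tissue in the labels, and the number in a title is the patriline. The paper's methods dissected every tissue from the same 5 workers of a patriline, so the libraries are paired by patriline. Their deviations from the tissue means had correlations between −0.15 and 0.49 over 18 pairs, and between 0.12 and 0.49 for ventriculus with tubules, and a further fit had the patriline as a block. The lowest chi-square per degree of freedom between pools of a tissue was 45.6, so no libraries were repeats. A library is 1 pool, and p-values measure the spread between pools. At this depth the number of pools, not counting, limits precision, except for LOC551224 in the brain.

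The members and the gene lists were chosen with earlier results of these data known. Named are the 5 members, the 3 other transcripts grouped under proteolysis by the study, further transcripts of member genes, related peptidases (matched by symbol, since no protein sequences were at hand), the 3 transcripts most like each member, and 3 gut transcripts from the study's list. Alternatives were RLE factors, library size only, DESeq2, no filter, the 12 libraries compared alone, the patriline block, sums per gene, each patriline left out, another pseudocount and other marker limits. Leaving out the brain pool of P21, those of P11 and P21, or patriline 21 in the patriline term was added after the data were seen. Tubules against brain, planned as a test, is given for the members and the study's other transcripts without one, since the tubule pools chose them.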

Additional observations from a re-analysis of the deposited data

Results flagged for a closer look

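Of 23 sets of 6 pools (5 members and the further LOC551224 transcript in 3 tissues, and 5 ratios), 5 held a pool far from the others. The rule flags about 1 in 20 sets by chance only where sets are independent and values normally distributed. Here the sets share libraries, the levels were not put on a log scale, and the tubule pools chose the members. The number of flagged sets is thus a description with no test. In the brain, P21 was high for trypsin (4.98 CPM, others up to 0.51), serine protease 53 (21.3, others up to 2.08), aminopeptidase N LOC551180 (43.5, others up to 1.10) and aminopeptidase N LOC551224 (0.18, others up to 0.067). That pool also held tubule transcripts at 17.0% of the tubule level, and their part in these values was not tested. In the ventriculus, P8 was high for serine protease K12H4.7, at 1306 CPM with the other pools at 916 to 1000.1.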

How the results depend on the processing

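All 5 members kept their direction and their side of the threshold in the ventriculus against the brain under the alternatives run, except that DESeq2 gave no adjusted p for serine protease 53. With the replicate block, which pairs the tissues of a patriline, 8030, 7811 and 5993 transcripts were called for ventriculus against brain, tubules against brain and ventriculus against tubules, beside 7904, 7654 and 6056 without it, and no member changed its call for ventriculus against brain. With 1 patriline left out the counts ran from 7506 to 7973, 7211 to 7669 and 5320 to 5785. Summed per gene, LOC551224 had a log2 fold change of 6.73 for ventriculus against brain and 3.75 for tubules against brain, since the sum includes the transcript that differs little between tissues. That transcript, XM_006565485.3, turned to −0.83 for ventriculus against brain on plain library size. It kept its sign but passed the threshold no longer under the block (adjusted p = 0.095), with no filter (0.053), without the patrilines 8, 11, 21 or 24 (0.076 to 0.13) and without the brain pool of P21 (0.069) or those of P11 and P21 (0.12), by edgeR's test. The patriline term called 12 transcripts on plain library size and 761 by DESeq2, against 6, also 6 without patriline 21. The median r between the members with 1 patriline left out ran from −0.13 to 0.25 in the ventriculus and from 0.18 to 0.98 in the brain, with both lowest values without P21, and from 0.96 to 0.98 in the tubules. A marker limit of 2% moved the ventriculus share in the tubule pools of P1 from 4.49% to 1.74%, of P21 from 2.33% to 0.603% and of P7 from 1.06% to 0.581%, and in the brain pool of P21 from 1.57% to 0.824%. The cause of these changes was not tested where none is given.

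Limits are the number of pools, the unknown strand setting, the share of fragments left uncounted, and the dependence of every ventriculus ratio on scaling. On plain library size the median transcript shifted by −1.79 on the log2 scale for ventriculus against brain, −1.30 for ventriculus against tubules and −0.52 for tubules against brain.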
